A study of Mus musculus with 9 samples.

Results

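Rab GTPases, the small GTP-binding proteins that direct vesicle traffic, were followed in mouse liver RNA. The members are the Ensembl genes of the deposited table whose symbol is Rab followed by a number and at most a letter and a further digit. The rule used names and no measured value. It found 59 genes among 55414 Ensembl genes. The 9 libraries came from livers of NSG mice, an immunodeficient strain without mature T, B or NK cells, and fall into 3 groups of 3. The first group had received tail-vein injections of extracellular vesicles (EVs) of MDA-MB-231 cells, a human triple-negative breast cancer line. The second had received EVs of MCF-10A cells, a non-tumorigenic human breast epithelial line. The third, the control, had received phosphate-buffered saline (PBS). Injections ran for 5 weeks in all groups, every liver is labelled WT for genotype, and neither age, sex nor EV dose is given. Nor do the labels say whether the 3 samples of a group came from separate mice, so the p-values measure the spread between these samples, which may be technical. The series title names miR-9-5p secreted by cancer cells and cholesterol homeostasis.

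A Rab protein cycles between a GDP-bound form held in the cytosol and a GTP-bound form on a membrane, where it recruits effectors that move, tether or fuse vesicles. Exchange factors load GTP, GTPase-activating proteins trigger its hydrolysis, and a lipid tail added by the Rab geranylgeranyl transferase anchors the protein. Each Rab marks a compartment, and hepatocytes use this traffic to secrete plasma proteins and lipoproteins, to recycle receptors and to sort proteins between the blood and bile faces of the cell. The members were put into 6 groups by their known main compartment, although many Rabs act at more than 1.

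Library differences that do not follow the groups were present. Values are TPM, a transcript abundance already corrected for transcript length, which keeps no read depth. Hepatocyte markers were the highest of the marker lists in all libraries, with Alb between 13114 and 65814 TPM. The T cell marker Cd3g was at 0 in all 9 libraries. The 10 neutrophil and monocyte markers summed highest in MCF-10A EV 1. Their sums were 79.9 to 300 TPM in MDA-MB-231 EV livers and 97.2 to 9127 TPM in MCF-10A EV livers. In PBS livers they were 71.5 to 194 TPM. Lcn2 made 3928 of the 9127 TPM, and Camp, Ccr2, Mpo, Ngp, Retnlg, S100a8 and S100a9 also peaked in MCF-10A EV 1. Ly6g peaked in MDA-MB-231 EV 3 (23.4 TPM, against 13.4 TPM in MCF-10A EV 1) and Ly6c2 in MDA-MB-231 EV 1. Saa1 read 28585 TPM in MCF-10A EV 1 and 21.0 to 1211 TPM in the other 8 libraries. In MCF-10A EV 1 the 10 Kupffer cell markers summed to 1917 TPM, with 289 to 780 TPM in the other 8 libraries. The markers did not move together. Marco (804 TPM), Cd5l (422 TPM), Adgre1, C1qa, C1qb, Csf1r and Timd4 were highest in MCF-10A EV 1. Clec4f read 0.61 TPM there, against 96.5 to 243 TPM in the other 8 libraries. Folr2 was at its lowest there, and Vsig4 was not highest. Mitochondrially encoded genes took 26.3% of the TPM in PBS 1 and 4.96% to 12.1% elsewhere. Mug2, a plasma protease inhibitor gene, read 789 TPM in MDA-MB-231 EV 3 and 750 TPM in PBS 1, against at most 32.1 TPM in the other 7 libraries. In bulk tissue, fewer cells of a type and less RNA per cell cannot be told apart.

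Of the 59 Rabs, 41 averaged at least 1 TPM over the 9 libraries and were tested, and all 41 were above 0 in every library. Among the other 18, 12 never exceeded 1 TPM, 6 did so in at least 1 library, and 11 were listed at 0 in at least 1 library. Rab9b, a late endosome member, was at 0 in all 9. The 6 that exceeded 1 TPM somewhere were Rab3b, Rab7b, Rab25, Rab37, Rab38 and Rab44, and the other 11 besides Rab9b were Rab3c, Rab6b, Rab15, Rab19, Rab26, Rab27b, Rab33a, Rab39, Rab39b, Rab40b and Rab42. The tested members numbered 8 of 8 for early endosomes, 8 of 12 for late endosomes and lysosomes, 10 of 12 for recycling, 3 of 8 for regulated secretion, 9 of 14 for the endoplasmic reticulum and Golgi, and 3 of 5 for cilia and other sites. The regulated secretion Rabs, typical of neurons, glands and granulocytes, were the least represented group. Over all libraries the recycling Rabs held 28.8% of the summed Rab TPM, reticulum and Golgi Rabs 26.6%, late endosome Rabs 26.4%, early endosome Rabs 14.6%, cilia and other Rabs 2.33% and secretion Rabs 1.24%.

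**Figure D1:**
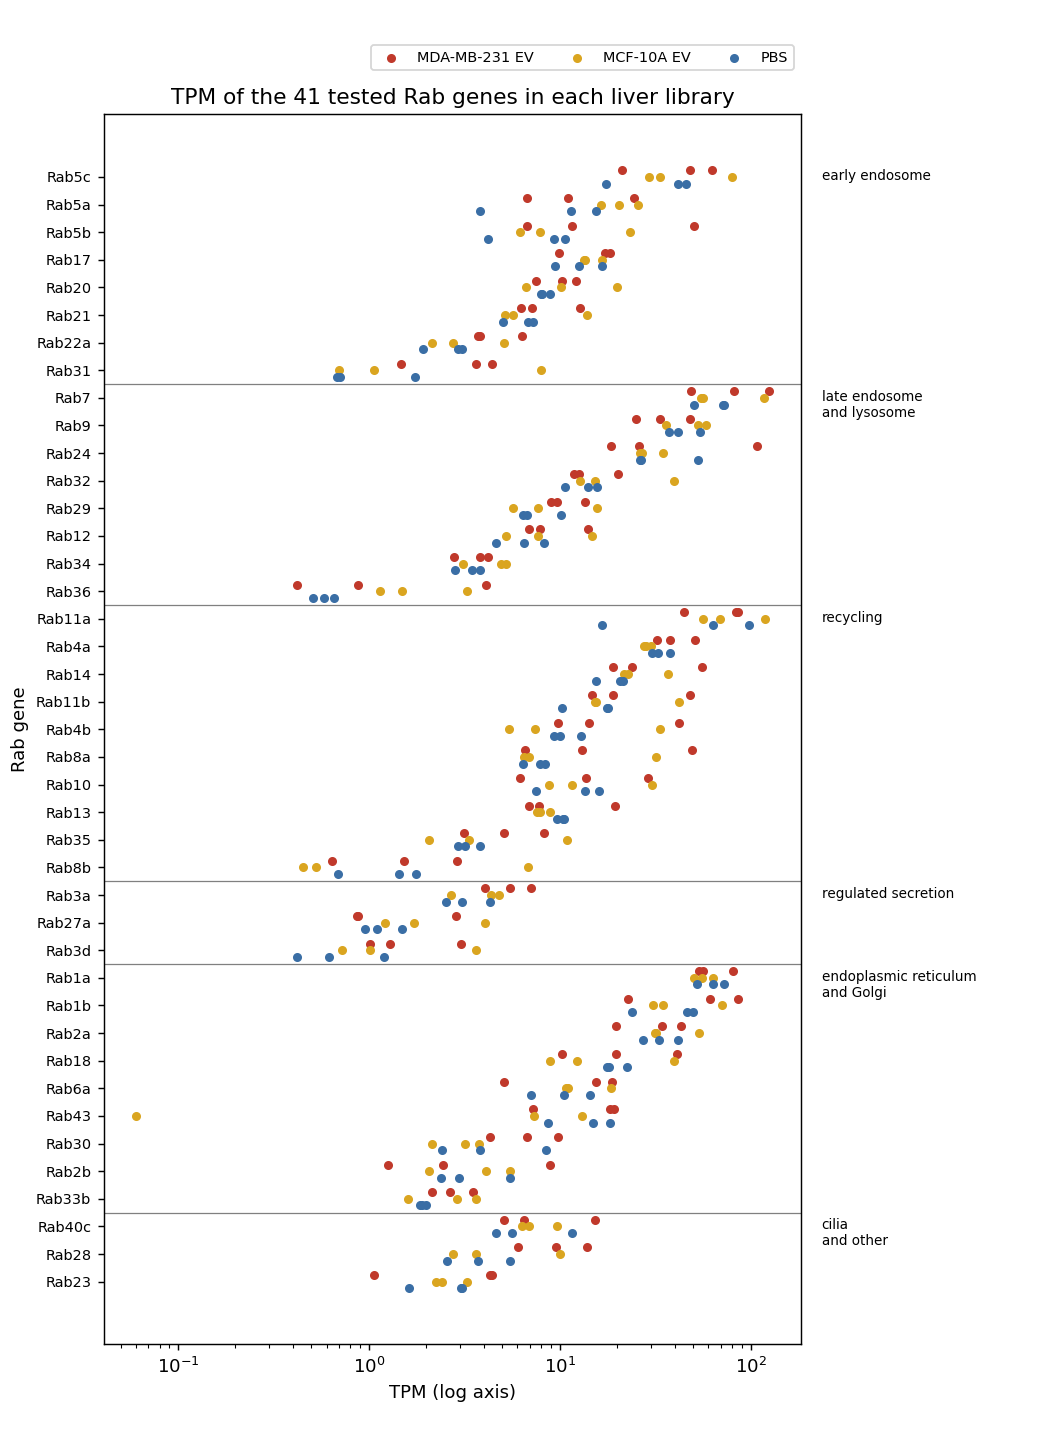
TPM on a log axis for each tested Rab gene, arranged by compartment, with 1 point per library coloured by group (MDA-MB-231 EV, MCF-10A EV, PBS). Rab1a and Rab4a have the narrowest spreads over the 9 libraries (1.61-fold and 1.84-fold), and no secretion Rab exceeds 7.04 TPM.

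The family's level is set by a few genes. The 7 highest by mean TPM (Rab7, Rab11a, Rab1a, Rab1b, Rab9, Rab5c and Rab24) held 50.2% of the summed Rab TPM. Their libraries overlap: Rab7 ranged over 48.5 to 125 TPM, Rab11a over 16.6 to 119 TPM and Rab1a over 50.2 to 80.8 TPM, so the order of these 3 is not separated by their spread.

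Early endosomes are fed by the Rab5 paralogs, which drive fusion of incoming endocytic vesicles. Rab5c, the most abundant of them, had 63.1, 48.3 and 21.2 TPM in MDA-MB-231 EV livers, 80.3, 33.3 and 29.4 TPM in MCF-10A EV livers and 17.5, 41.6 and 45.6 TPM in PBS livers. Rab5a had 24.4, 11.1 and 6.73 TPM in MDA-MB-231 EV livers, 25.7, 16.4 and 20.4 TPM in MCF-10A EV livers and 3.82, 11.5 and 15.4 TPM in PBS livers. Every MCF-10A EV library stood above every PBS library for Rab5a (chr17:53479234-53507680, plus strand, GRCm38), while the MDA-MB-231 EV libraries overlapped both. Rab5b, singled out after its values were seen, read 50.3, 11.6 and 6.72 TPM in MDA-MB-231 EV livers, 23.5, 7.85 and 6.21 TPM in MCF-10A EV livers and 4.21, 10.7 and 9.31 TPM in PBS livers. For Rab5b the first library of each EV group was far above the rest, and the other 7 libraries overlapped across groups. Rab22a, which sorts cargo from early to recycling endosomes, read 6.34, 3.80 and 3.75 TPM in MDA-MB-231 EV livers, 5.12, 2.77 and 2.13 TPM in MCF-10A EV livers and 1.93, 2.94 and 3.08 TPM in PBS livers. All MDA-MB-231 EV libraries exceeded all PBS libraries for Rab22a, with MCF-10A EV libraries between and across them. Rab31, its close relative on the route between Golgi and endosomes, had 3.62, 1.48 and 4.40 TPM in MDA-MB-231 EV livers, 7.97, 1.06 and 0.70 TPM in MCF-10A EV livers and 0.71, 1.75 and 0.68 TPM in PBS livers. The other 3 members are Rab17, an epithelial Rab of polarized sorting, Rab20, found on maturing phagosomes, and Rab21, which carries integrins inward. They averaged 14.2, 10.2 and 7.77 TPM over all libraries.

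Late endosomes carry Rab7, needed for their fusion with lysosomes and the most abundant Rab here. Rab7 had 125, 81.7 and 48.5 TPM in MDA-MB-231 EV livers, 118, 56.4 and 54.9 TPM in MCF-10A EV livers and 50.4, 71.3 and 72.6 TPM in PBS livers. Rab9, which returns mannose 6-phosphate receptors to the Golgi, had 33.7, 25.1 and 48.0 TPM in MDA-MB-231 EV livers, 35.9, 53.3 and 58.2 TPM in MCF-10A EV livers and 54.5, 37.1 and 41.6 TPM in PBS livers. The groups overlap for both genes, and Rab9, unlike Rab7, was highest in MCF-10A EV 3. Rab24, an atypical Rab linked to autophagy and singled out after its values were seen, read 26.1, 18.6 and 108 TPM in MDA-MB-231 EV livers, 26.3, 27.1 and 34.7 TPM in MCF-10A EV livers and 53.0, 26.8 and 26.4 TPM in PBS livers. A single library, MDA-MB-231 EV 3, stood far above the other 8. Exons of Rab24 overlap those of Prelid1 on the opposite strand, and the strand setting of the counting is not given. Reads in the overlap may have been counted for either gene, which was not examined. Rab32, a Rab of lysosome-related organelles and mitochondria, had 20.3, 12.7 and 11.8 TPM in MDA-MB-231 EV livers, 39.5, 12.8 and 15.3 TPM in MCF-10A EV livers and 10.6, 14.1 and 15.6 TPM in PBS livers. Rab36, which positions lysosomes near the Golgi, had 4.09, 0.42 and 0.88 TPM in MDA-MB-231 EV livers, 3.28, 1.50 and 1.15 TPM in MCF-10A EV livers and 0.58, 0.51 and 0.66 TPM in PBS livers, so that its MCF-10A EV libraries all lay above its PBS libraries. Rab29 and Rab12 averaged 9.39 and 8.43 TPM over all libraries, and Rab34 averaged 3.80 TPM. Rab44, a large Rab of mast cells and other immune cells, was not tested and was chosen after its values were seen. Rab44 read 0.06, 0 and 0.50 TPM in MDA-MB-231 EV livers, 5.56, 0.14 and 1.45 TPM in MCF-10A EV livers and 0.76, 0.18 and 0.04 TPM in PBS livers. Its highest library was MCF-10A EV 1, the library with 9127 TPM of neutrophil and monocyte markers; the part of those cells in the value was not tested.

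Recycling Rabs return receptors to the surface, Rab4 by a fast route and Rab11 by a slower one through the perinuclear endosome. Rab11a had 86.2, 83.5 and 45.0 TPM in MDA-MB-231 EV livers, 119, 68.9 and 56.2 TPM in MCF-10A EV livers and 16.6, 98.1 and 63.3 TPM in PBS livers. PBS 1 gave its lowest value. Rab4a had 37.6, 32.2 and 51.0 TPM in MDA-MB-231 EV livers, 30.0, 28.2 and 27.8 TPM in MCF-10A EV livers and 30.4, 32.8 and 37.7 TPM in PBS livers. Its MCF-10A EV libraries lay below all libraries of both other groups, and its fold range over all 9, 1.84, was the second smallest of the tested Rabs after Rab1a. Rab8a, which carries cargo from the Golgi and recycling endosomes to the surface and to cilia, was singled out after its values were seen. It had 49.1, 13.1 and 6.56 TPM in MDA-MB-231 EV livers, 32.1, 6.88 and 6.47 TPM in MCF-10A EV livers and 6.45, 8.41 and 7.91 TPM in PBS livers, with the first library of each EV group far above the rest. Rab14, which moves between Golgi and endosomes and was also chosen after its values were seen, had 55.7, 24.0 and 19.0 TPM in MDA-MB-231 EV livers, 36.7, 21.8 and 22.7 TPM in MCF-10A EV livers and 15.5, 20.8 and 21.4 TPM in PBS livers. For Rab14 every MCF-10A EV library exceeded every PBS library. Rab13, a Rab of tight junction delivery chosen in the same way, had 6.93, 7.79 and 19.4 TPM in MDA-MB-231 EV livers, 8.91, 7.88 and 7.58 TPM in MCF-10A EV livers and 10.5, 10.4 and 9.69 TPM in PBS livers, and its MCF-10A EV libraries were all below its PBS libraries. The remaining tested members were Rab11b, Rab10, Rab4b, Rab35 and Rab8b, at 22.3, 15.2, 16.1, 4.76 and 1.86 TPM on average over all libraries.

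Regulated secretion is served by Rab3 and Rab27, which dock granules and, for Rab27a and Rab27b in human cancer cells, multivesicular endosomes that release exosomes. Rab3a was the highest, with 5.51, 4.07 and 7.04 TPM in MDA-MB-231 EV livers, 4.83, 2.69 and 4.36 TPM in MCF-10A EV livers and 4.32, 2.53 and 3.07 TPM in PBS livers. Rab27a had 2.85, 0.88 and 0.87 TPM in MDA-MB-231 EV livers, 4.04, 1.73 and 1.21 TPM in MCF-10A EV livers and 0.96, 1.50 and 1.10 TPM in PBS livers. Rab27b was under 1 TPM in all 9 libraries, at 0.23, 0.10 and 0.19 TPM in MDA-MB-231 EV livers, 0.86, 0.30 and 0.27 TPM in MCF-10A EV livers and 0.31, 0.28 and 0.15 TPM in PBS livers. Groups overlapped for Rab3a and Rab27a. Rab3d, a granule Rab of glands, averaged 1.44 TPM over all libraries. Rab37, a Rab of mast cell granules, was not tested and was chosen after its values were seen. Rab37 read 0.21, 0 and 4.09 TPM in MDA-MB-231 EV livers, 0.64, 0 and 0.02 TPM in MCF-10A EV livers and 0.48, 0.12 and 0 TPM in PBS livers, above 1 TPM in MDA-MB-231 EV 3 alone.

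The reticulum and Golgi are linked by Rab1, which carries cargo out of the endoplasmic reticulum, and by Rab2. Rab1a had 56.5, 53.4 and 80.8 TPM in MDA-MB-231 EV livers, 55.5, 50.2 and 63.8 TPM in MCF-10A EV livers and 72.6, 63.4 and 52.3 TPM in PBS livers. It was the steadiest tested Rab, with a fold range of 1.61 between its highest and lowest library. Its paralog Rab1b had 85.4, 61.1 and 22.8 TPM in MDA-MB-231 EV livers, 70.8, 34.8 and 30.8 TPM in MCF-10A EV livers and 23.9, 50.1 and 46.6 TPM in PBS livers. The paralogs did not share an order of libraries: Rab1a was highest in MDA-MB-231 EV 3, where Rab1b was lowest. Rab30, a Golgi Rab, had 6.75, 9.75 and 4.31 TPM in MDA-MB-231 EV livers, 2.15, 3.77 and 3.17 TPM in MCF-10A EV livers and 3.81, 8.51 and 2.41 TPM in PBS livers. All MDA-MB-231 EV libraries exceeded all MCF-10A EV libraries for Rab30 (chr7:92741603-92844535, plus strand, GRCm38), and PBS libraries overlapped both. Rab33b, a Golgi Rab that also takes part in autophagy and was chosen after its values were seen, had 3.51, 2.13 and 2.67 TPM in MDA-MB-231 EV livers, 3.66, 1.61 and 2.90 TPM in MCF-10A EV livers and 1.85, 1.98 and 1.89 TPM in PBS livers. The PBS libraries of Rab33b were close together and below all MDA-MB-231 EV libraries. Rab2a, Rab18 (a Rab of the reticulum and lipid droplets) and Rab6a averaged 35.1, 21.1 and 12.4 TPM over all libraries, and Rab2b averaged 3.89 TPM.

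Outside these routes, Rab28 is a ciliary Rab known for its part in photoreceptors, at chr5:41624976-41708157 on the minus strand of GRCm38 (GENCODE M21, as are the other gene positions given). Rab28 had 13.8, 6.01 and 9.52 TPM in MDA-MB-231 EV livers, 10.0, 2.77 and 3.65 TPM in MCF-10A EV livers and 3.71, 5.46 and 2.56 TPM in PBS livers. Its MDA-MB-231 EV libraries were all above its PBS libraries. Rab40c, which joins a ubiquitin ligase, had 6.47, 5.08 and 15.2 TPM in MDA-MB-231 EV livers, 6.38, 6.87 and 9.63 TPM in MCF-10A EV livers and 11.7, 5.64 and 4.62 TPM in PBS livers. The groups overlapped for Rab40c. Rab23, which restrains Hedgehog signalling, averaged 2.83 TPM over all libraries.

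Many Rabs were highest in the same libraries. For 23 of the 41 tested Rabs (56.1%), the pair of libraries with the highest TPM was MDA-MB-231 EV 1 and MCF-10A EV 1. The same pair led for 2859 of 12860 tested genes (22.2%). Against each gene's median over the 9 libraries, the median Rab deviated by 0.59 on the log2(TPM + 1) scale in MDA-MB-231 EV 1 and by 0.73 in MCF-10A EV 1, while the median of all tested genes deviated by 0.30 and 0.21. Those 23 include Rab5a, Rab5b and Rab5c, Rab7, Rab8a, Rab14, Rab1b, Rab2a and Rab27a. The pair MDA-MB-231 EV 3 and PBS 1 led for 4 Rabs (9.76%), Rab1a, Rab13, Rab24 and Rab40c, against 22.1% of all tested genes. These shares are descriptions of 9 libraries and were not tested. MCF-10A EV 1 also held the highest neutrophil and monocyte sum and the highest Kupffer cell sum. In MDA-MB-231 EV 1 these sums were 79.9 and 681 TPM. Several other markers peaked in MDA-MB-231 EV 1, such as Kdr (19.4 TPM), Lyve1 (12.7 TPM), Dcn (171 TPM) and Reln (45.8 TPM). Others of the endothelial and stellate cell lists, such as Stab1 (23.1 TPM) and Ecm1 (218 TPM), did not. The part of cell composition in the Rab values was not tested.

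**Figure D2:**
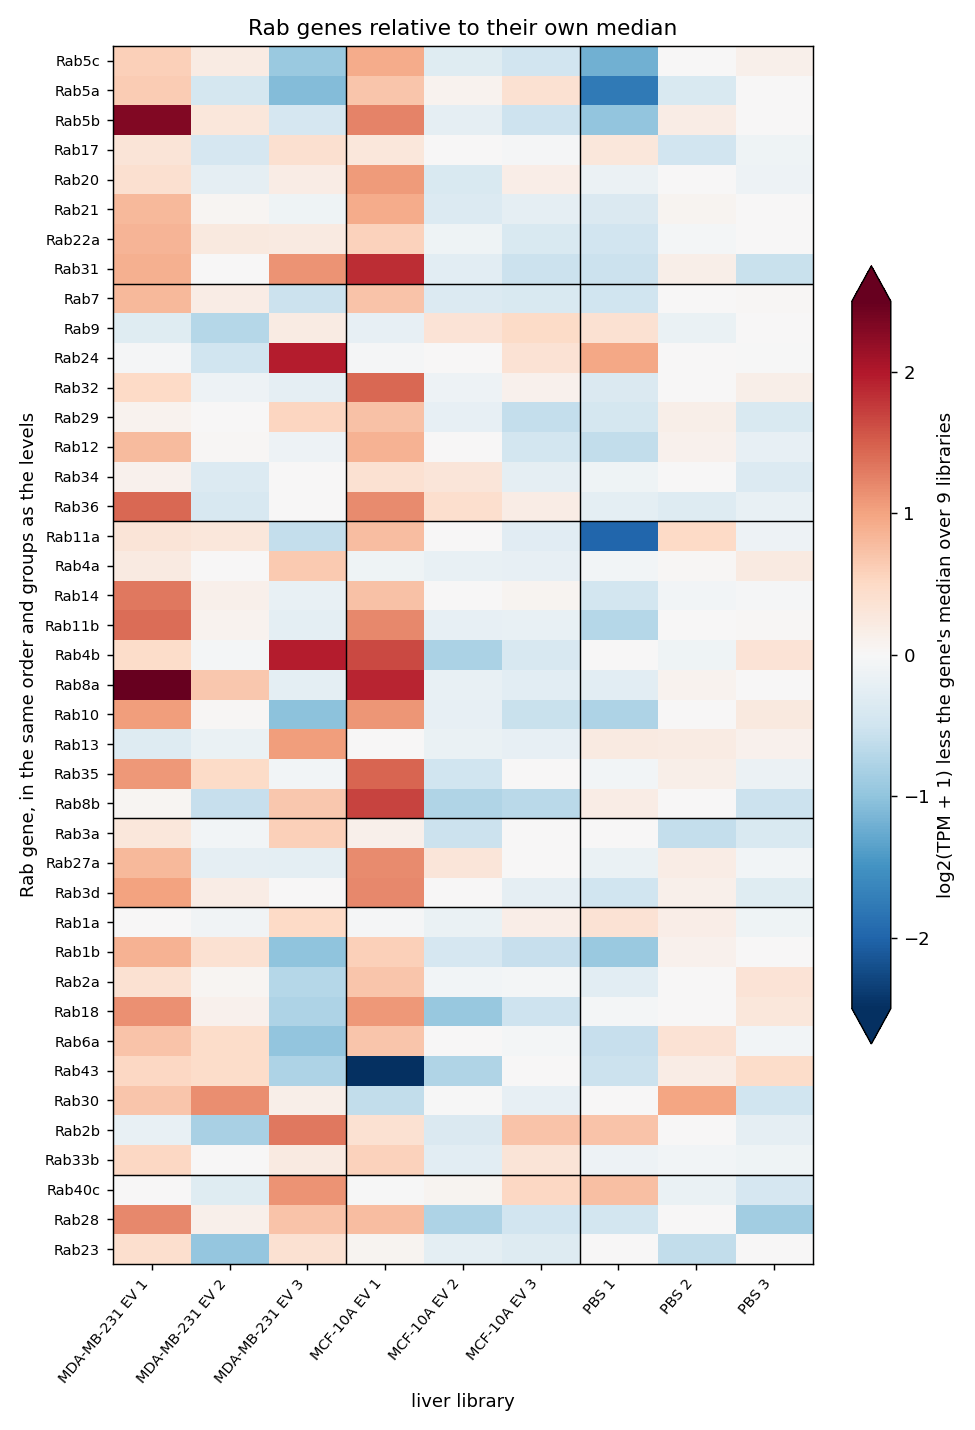
Heat map of log2(TPM + 1) less each gene's median over the 9 libraries, with tested Rabs in rows by compartment and libraries in columns (MDA-MB-231 EV, then MCF-10A EV, then PBS). The first column of each EV group is high for most rows, and MDA-MB-231 EV 3 is high for a different small set that includes Rab24, Rab13 and Rab40c.

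Summed TPM of all 59 Rabs shows the same libraries. The sums were 1079, 705 and 739 TPM in MDA-MB-231 EV livers, 1096, 598 and 622 TPM in MCF-10A EV livers, and 551, 713 and 681 TPM in PBS livers. They averaged 841 ± 207 TPM in MDA-MB-231 EV livers, 772 ± 281 TPM in MCF-10A EV livers and 648 ± 85.5 TPM in PBS livers (SD, n = 3 each), and the groups overlap. Recycling Rabs summed to 337, 209 and 211 TPM in MDA-MB-231 EV livers, 351, 169 and 157 TPM in MCF-10A EV livers and 113, 217 and 191 TPM in PBS livers. Early endosome Rabs summed to 190, 101 and 77.7 TPM in MDA-MB-231 EV livers, 193, 86.8 and 88.0 TPM in MCF-10A EV livers and 57.9, 94.0 and 102 TPM in PBS livers. For both groups of Rabs the lowest sum was in PBS 1, the library with the highest mitochondrial share, whose part in this was not tested.

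**Figure D3:**
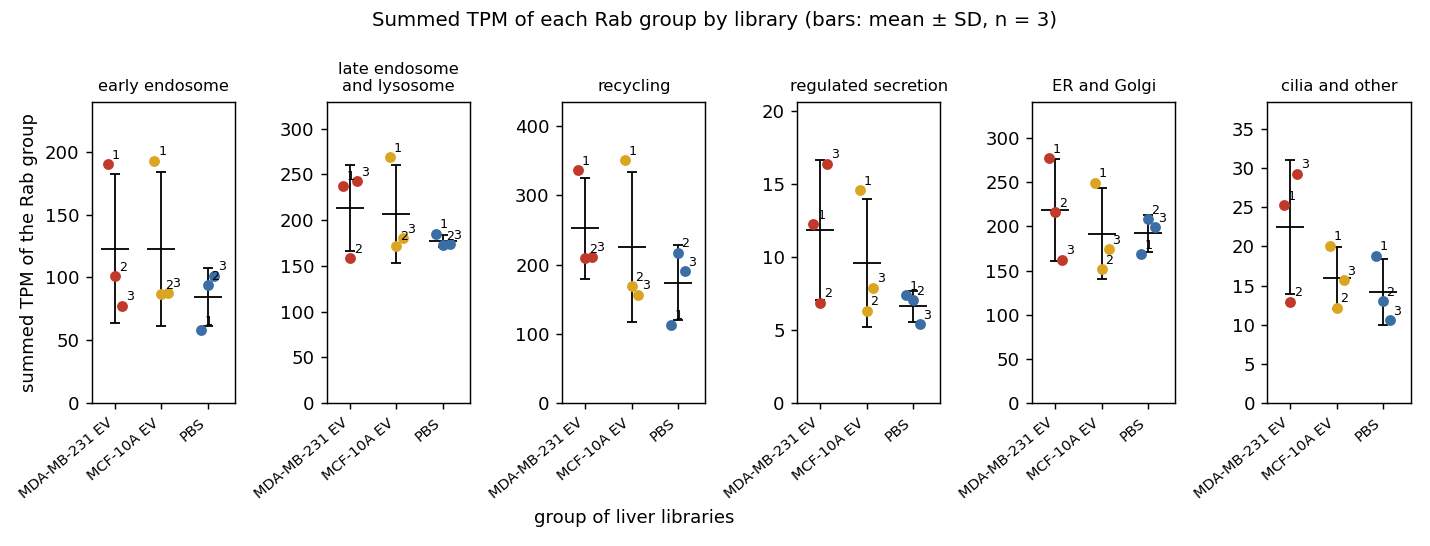
Summed TPM of each Rab compartment group in every library, with a numbered point per library and bars for the mean ± SD of each group (n = 3); each panel has its own axis starting at 0. The first library of each EV group lies above the others in the early endosome and recycling panels.

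Promoters are shown for Rab5b and Rab8a, members of the set of 23, and for Rab24, which peaked in other libraries. They are RefSeq sequences on build GRCm38.p6, from 250 bases before to 50 after the start, 5′ to 3′ on the gene's strand. Capitals mark CCAAT or its reverse ATTGG, the CCAAT box, and CACGTG, the E-box.
Rab5b (chr10:128696219-128696518, minus strand): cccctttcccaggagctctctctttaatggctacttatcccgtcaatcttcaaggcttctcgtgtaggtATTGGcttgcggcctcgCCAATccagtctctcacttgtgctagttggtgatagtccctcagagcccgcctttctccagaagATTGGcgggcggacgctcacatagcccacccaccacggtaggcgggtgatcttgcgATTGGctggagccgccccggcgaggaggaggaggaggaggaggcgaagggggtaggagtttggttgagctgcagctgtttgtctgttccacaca
Rab8a (chr8:72160950-72161249, plus strand): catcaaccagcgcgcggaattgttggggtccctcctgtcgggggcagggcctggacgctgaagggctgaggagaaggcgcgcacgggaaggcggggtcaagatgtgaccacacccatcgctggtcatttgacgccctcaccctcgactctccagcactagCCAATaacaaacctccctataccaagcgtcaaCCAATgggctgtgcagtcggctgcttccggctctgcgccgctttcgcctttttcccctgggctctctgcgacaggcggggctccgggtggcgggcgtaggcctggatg
Rab24 (chr13:55321931-55322230, minus strand): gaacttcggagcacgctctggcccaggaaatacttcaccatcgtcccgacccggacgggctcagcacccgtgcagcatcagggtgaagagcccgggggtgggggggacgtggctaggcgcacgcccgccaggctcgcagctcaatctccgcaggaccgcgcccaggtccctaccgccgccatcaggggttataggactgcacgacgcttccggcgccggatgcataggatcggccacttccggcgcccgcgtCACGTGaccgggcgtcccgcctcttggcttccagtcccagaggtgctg
Rab5b and Rab8a hold CCAAT boxes in this window, and Rab24 holds an E-box. RefSeq promoters were matched for 48 of the 59 Rab symbols, 60 promoters in all. CCAAT on either strand stood in 26 of these 60 (43.3%) and in 37.4% of 32851 promoters of all genes. CACGTG stood in 6 of 60 (10.0%), those of Rab20, Rab21, Rab23, Rab24, Rab27a and Rab5a, and in 7.15% of all. TATAAA stood in 4 of 60 (6.67%) and in 13.6% of all. Among the 23 Rabs that led in the pair of EV libraries, 20 had a promoter and 12 of them held CCAAT; among the other 18 tested Rabs the numbers were 16 and 9. A match of letters is a description, not a binding site, and these shares were not tested.

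MDA-MB-231 EV livers were first compared with PBS livers, which asks whether liver expression differed after EVs of the cancer line. No Rab passed, and neither did any other gene: 0 of 41 Rabs and 0 of 12860 tested genes (0%) had an adjusted p below 0.05 with limma on log2(TPM + 1) and Benjamini-Hochberg adjustment. All adjusted p were 1. At an unadjusted p below 0.05, there was 1 Rab, Rab28, beside 199 of all genes (1.55%). Rab28 averaged 9.78 ± 3.91 TPM in MDA-MB-231 EV livers and 3.91 ± 1.46 TPM in PBS livers (SD, n = 3 each), a log2 difference of 1.11 ± 0.49 (SE) with unadjusted p = 0.0469 and adjusted p = 1 by limma. The next by p were Rab3a at 0.60 ± 0.37, Rab31 at 0.99 ± 0.64 and Rab22a at 0.61 ± 0.40 log2, none past the threshold. Rab27a differed by 0.13 ± 0.48 log2, far inside its error, and by -0.21 without MDA-MB-231 EV 1. In 3 Rabs, Rab28, Rab22a and Rab33b, every MDA-MB-231 EV library exceeded every PBS library, and in none was every library lower. Among all tested genes 5.23% were higher and 0.801% lower in that way, so a share of 3 in 41 is near the background.

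The estimates leaned upward as a family without a call. Of the 41 Rabs, 38 had a log2 difference above 0 and 3 below, against 69.7% above 0 among all tested genes. The median Rab differed by 0.31 log2 and the median gene by 0.21. By compartment the medians were 0.39 for early endosomes, 0.23 for late endosomes, 0.53 for recycling and 0.08 for the reticulum and Golgi. They were 0.60 for secretion and 0.21 for cilia and other sites, each with only 3 tested genes. All 8 early endosome and all 10 recycling Rabs were above 0, as estimates that did not pass. The Rab median was 0.16 without MDA-MB-231 EV 1, 0.49 without MDA-MB-231 EV 3 and 0.26 without PBS 1. Under quantile normalization it was 0.08, and 0.04 above that of all genes. Without PBS 1 the Rab median less that of all genes was -0.03, against 0.11 with every library.

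**Figure D4:**
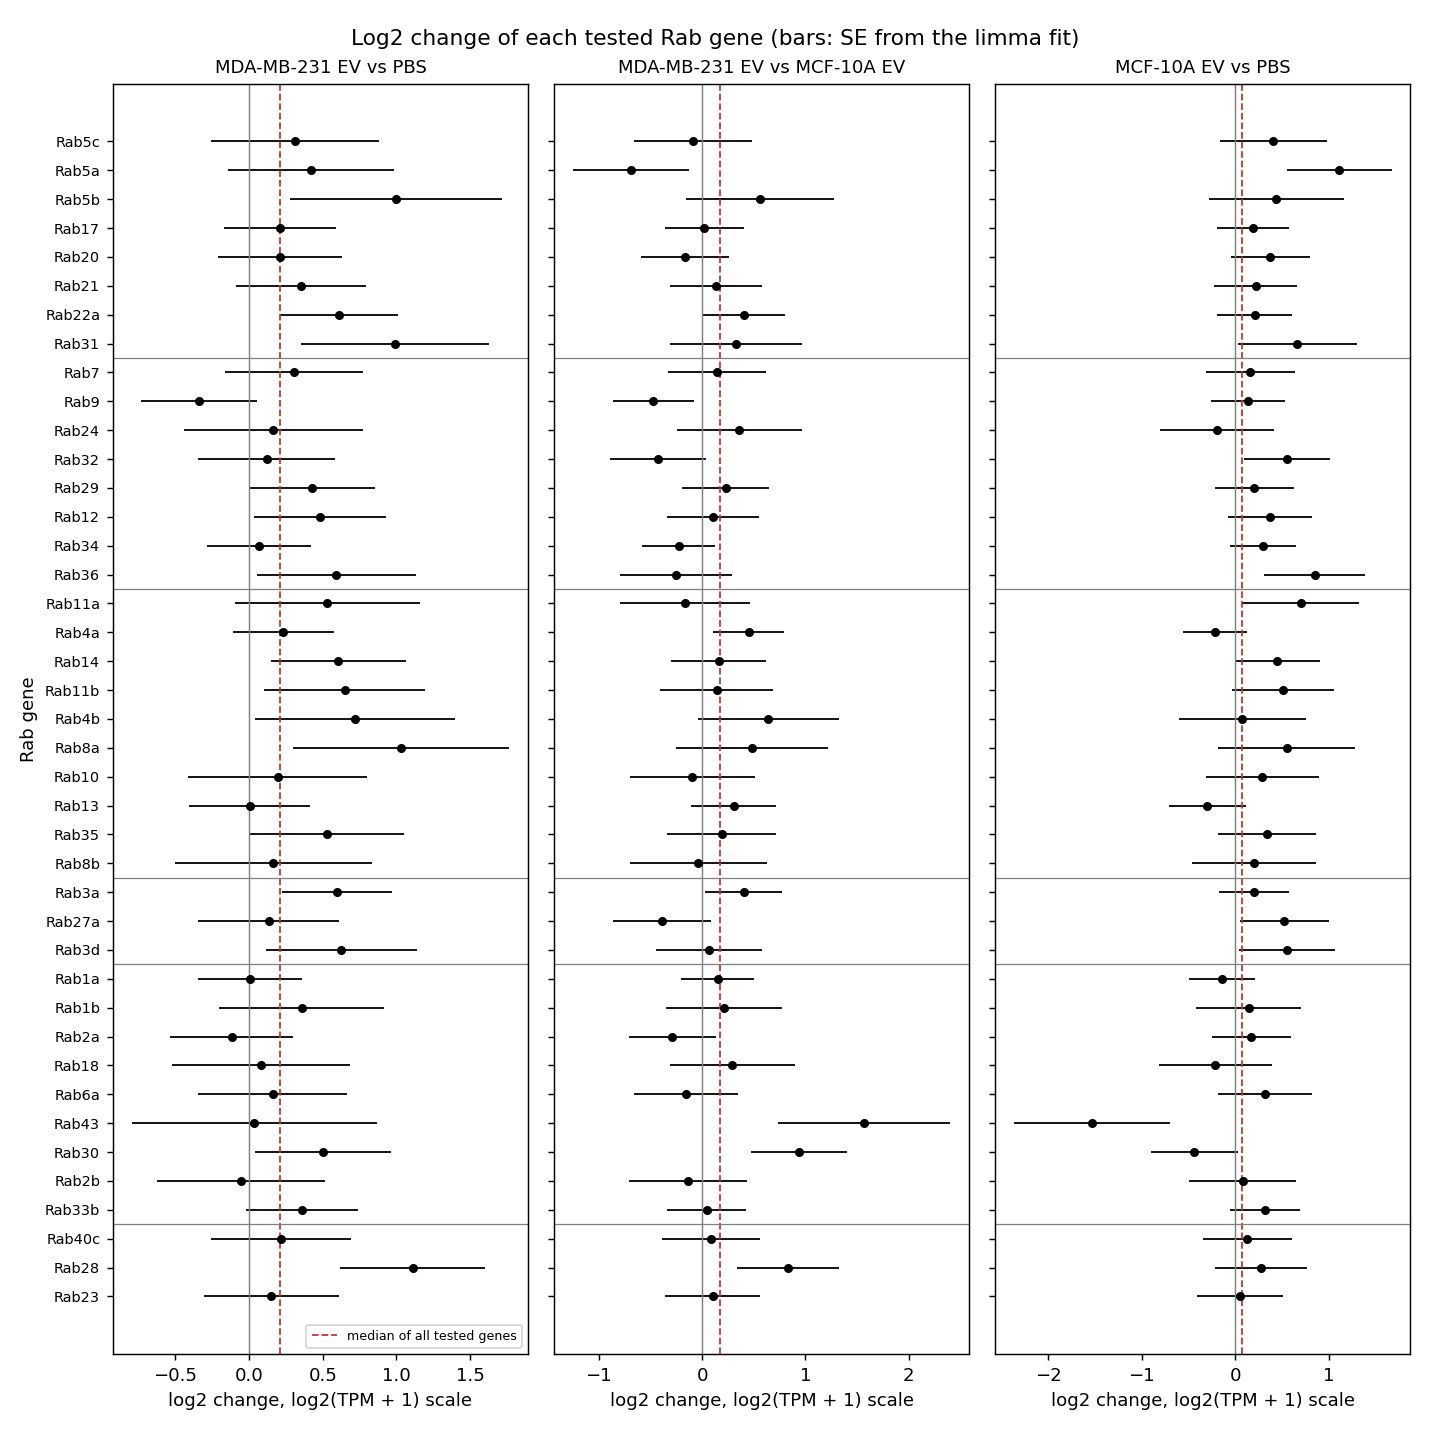
Log2 difference with its SE for each tested Rab in the comparisons of MDA-MB-231 EV with PBS livers, MDA-MB-231 EV livers with MCF-10A EV livers, and MCF-10A EV with PBS livers; the red dashed line is the median of all tested genes. Most error bars cross 0 in every panel, and none of the 41 genes passed the adjusted threshold.

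MDA-MB-231 EV livers were then set against MCF-10A EV livers, which sets EVs of a cancer line against EVs of a non-tumorigenic line. The deposited MCF-10A EV columns have every assembled locus at 0 and lower TPM totals, unlike those of the other groups, so they may have been processed apart. In both comparisons that use them, such processing and the EV treatment cannot be told apart. With the Ensembl genes of each library rescaled to the same total, the Rab median was 0.11 log2 for MDA-MB-231 EV livers over MCF-10A EV livers and 0.25 for MCF-10A EV over PBS livers, a scaling that does not remove other processing differences. Again 0 of 41 Rabs passed, while 28 of all tested genes did (0.218%), and 15 with the replicate number as a block. With the block no Rab passed either. At an unadjusted p below 0.05 there was no Rab, beside 492 genes (3.83%). Rab30 averaged 6.94 ± 2.72 TPM in MDA-MB-231 EV livers and 3.03 ± 0.82 TPM in MCF-10A EV livers (SD, n = 3 each), a log2 difference of 0.94 ± 0.46 (SE; limma adjusted p = 1). Rab43 differed by 1.57 ± 0.83, Rab28 by 0.83 ± 0.49 and Rab4a by 0.45 ± 0.34 log2, none past the threshold. Rab27a differed by -0.39 ± 0.48 log2. Groups stood apart for Rab30 and Rab4a, both higher in MDA-MB-231 EV livers, and for no Rab lower; the background was 4.73% higher and 1.8% lower. Of the 41 Rabs 27 were above 0 and 14 below, with a median of 0.13 against 0.17 for all tested genes. The sign of the Rab median rests on single libraries: leaving out MDA-MB-231 EV 1 gave -0.18, and leaving out MCF-10A EV 1, 2 or 3 gave 0.40, -0.03 or -0.03. Under quantile normalization it was -0.09.

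MCF-10A EV livers were also compared with PBS livers, which asks the same of the non-tumorigenic line. Of all tested genes 25 passed (0.194%), and 0 of the 41 Rabs. No Rab reached an unadjusted p below 0.05, which 411 genes did (3.2%). Rab5a averaged 20.8 ± 4.63 TPM in MCF-10A EV livers and 10.2 ± 5.89 TPM in PBS livers (SD, n = 3 each), a log2 difference of 1.11 ± 0.56 (SE; limma adjusted p = 1). Rab43 differed by -1.53 ± 0.83, Rab36 by 0.85 ± 0.54 and Rab32 by 0.55 ± 0.46 log2, and Rab27a by 0.52 ± 0.48, none past the threshold. Groups stood apart for 3 Rabs higher in MCF-10A EV livers, Rab5a, Rab36 and Rab14, and for 2 lower, Rab13 and Rab4a. Among all tested genes 2.95% stood apart higher and 4.74% lower. The Rabs had 34 estimates above 0 and 7 below, a median of 0.22 log2 against 0.07 for all tested genes. All 8 early endosome Rabs were above 0, with a median of 0.39. Without MCF-10A EV 1 the family's median was -0.07, so its direction rests on that library. The comparisons share groups of libraries and are not independent of each other.

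Several members share exons with an overlapping gene, and whether reads were shared between them was not examined. On GENCODE M21, build GRCm38, Rab43 lies at chr6:87788853-87812164 on the minus strand and shares exons with Gm45140, a protein-coding gene on the same strand. Rab43 read 19.1, 18.4 and 7.27 TPM in MDA-MB-231 EV livers, 0.06, 7.31 and 13.0 TPM in MCF-10A EV livers and 8.71, 14.9 and 18.4 TPM in PBS livers. Gm45140 read 49.2, 6.26 and 5.44 TPM in MDA-MB-231 EV livers, 27.4, 14.0 and 1.45 TPM in MCF-10A EV livers and 2.34, 4.87 and 0.98 TPM in PBS livers. The value of 0.06 TPM for Rab43 in MCF-10A EV 1 stood beside 27.4 TPM for Gm45140, so the TPM of these features divide differently by library. Whether this comes from the assignment of reads or from expression was not tested. Summed, the pair read 68.3, 24.7 and 12.7 TPM in MDA-MB-231 EV livers, 27.4, 21.3 and 14.5 TPM in MCF-10A EV livers and 11.1, 19.8 and 19.4 TPM in PBS livers, and the groups overlap. Without MCF-10A EV 1 the Rab43 difference between MDA-MB-231 EV and MCF-10A EV livers was 0.45 log2, and between MCF-10A EV and PBS livers -0.42 log2.

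**Figure D5:**
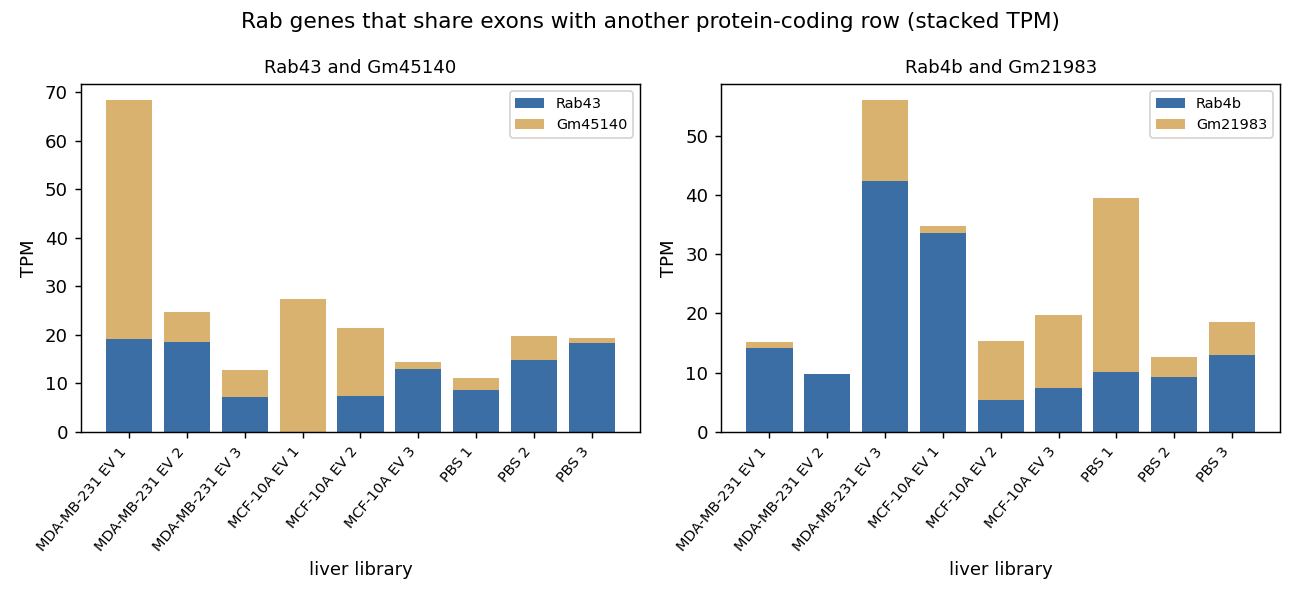
Stacked TPM of Rab43 with Gm45140 and of Rab4b with Gm21983 in each library, MDA-MB-231 EV, then MCF-10A EV, then PBS. In MCF-10A EV 1 nearly all TPM of the Rab43 pair is that of Gm45140, and the Rab4b pair divides differently from library to library.

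Rab4b, the fast-recycling paralog of Rab4a, is at chr7:27168424-27178896 on the minus strand and shares exons with Gm21983 on the same strand. It was singled out for this overlap. Rab4b read 14.2, 9.77 and 42.3 TPM in MDA-MB-231 EV livers, 33.5, 5.43 and 7.40 TPM in MCF-10A EV livers and 10.1, 9.32 and 13.0 TPM in PBS livers. The pair summed to 15.1, 9.77 and 56.0 TPM in MDA-MB-231 EV livers, 34.8, 15.3 and 19.7 TPM in MCF-10A EV livers and 39.5, 12.7 and 18.6 TPM in PBS livers. Both Rab4b and the sum were highest in MDA-MB-231 EV 3, but PBS 1 ranked second only in the sum. Opposite-strand overlaps make Rab6a (with Mrpl48), Rab3a (with Mpv17l2), Rab10 (with Rab10os) and Rab2b (with Tox4) uncertain in the same way as Rab24. The same holds for Rab11b (with Gm17251, 4.91 TPM on average) and Rab40c (with Gm16278, 1.41 TPM). Opposite-strand partners of other tested Rabs averaged at most 0.39 TPM.

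The RNA named in the series title, miR-9-5p, is shown with its seed (bases 2 to 8) in capitals, as RefSeq gives it for Mir9-1, Mir9-2 and Mir9-3.
miR-9-5p: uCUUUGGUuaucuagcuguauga
A 3′ UTR can pair with the seed through ACCAAAG, through the longer ACCAAAGA, or through CCAAAGA. Of the 41 tested Rabs, 10 (24.4%) held at least 1 of these in the longest annotated 3′ UTR, searched on the transcript's strand, against 22.2% of 11136 tested genes with a 3′ UTR. The 8-base match stood in 1 Rab, Rab34, which positions lysosomes (2.44%, against 4.43% of all). Rab34 and Rab8a each hold a further match, CCAAAGA, later in the UTR. Matches are printed for Rab34 (its first), Rab43 (its first of 3), Rab30 and Rab8a (its first), with their GRCm38 positions and the match in capitals.
Rab34 (chr11:78191931-78191960, plus strand): actttttccagACCAAAGAgctatccattg
Rab43 (chr6:87792172-87792200, minus strand): tcctgcctcttACCAAAGtataaaaagca
Rab30 (chr7:92837852-92837880, plus strand): aatagccagcaACCAAAGgcatcagaaga
Rab8a (chr8:72180577-72180605, plus strand): ttacgtgtcaaACCAAAGggaagcacaaa
Rab34 itself had 4.22, 2.78 and 3.82 TPM in MDA-MB-231 EV livers, 5.24, 4.95 and 3.10 TPM in MCF-10A EV livers and 3.47, 3.84 and 2.81 TPM in PBS livers. The groups overlapped, and no Rab with a match differed past the threshold in any comparison. The matches overlap one another by construction, since ACCAAAGA contains both shorter forms, and they are letters, not shown sites.

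The proteins that run the Rab cycle were read out of the same fit. None of the 7 tested genes of prenylation and Rab recycling, 33 exchange factors, 34 GTPase-activating proteins, 46 effectors or 30 ESCRT and exosome proteins passed in any of the 3 comparisons with limma. In MDA-MB-231 EV against PBS livers their median log2 differences were 0.25, 0.22, 0.26, 0.17 and 0.27 in that order, near the 0.21 of all tested genes. In MDA-MB-231 EV livers against MCF-10A EV livers they were 0.40, 0.28, 0.22, 0.21 and 0.11, beside 0.17 for all. In MCF-10A EV against PBS livers they were 0.02, -0.03, -0.00, -0.14 and 0.27, beside 0.07.

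Single regulators are named for having the smallest p of their list. Tbc1d1, a GTPase-activating protein for Rab8 and Rab10 family members in glucose transporter traffic, read 6.67, 7.74 and 9.03 TPM in MDA-MB-231 EV livers, 5.90, 8.29 and 5.53 TPM in MCF-10A EV livers and 3.37, 3.77 and 2.36 TPM in PBS livers. Every library of both EV groups exceeded every PBS library, with log2 differences of 1.09 ± 0.34 for MDA-MB-231 EV and 0.86 ± 0.34 for MCF-10A EV (SE; limma adjusted p = 1 for both). Chmp4c, an ESCRT-III subunit, read 1.07, 1.36 and 1.31 TPM in MDA-MB-231 EV livers, 0.76, 0.53 and 0.30 TPM in MCF-10A EV livers and 12.0, 2.58 and 1.87 TPM in PBS livers. All PBS libraries were above all EV libraries, and the highest was PBS 1. Its log2 differences from PBS were -1.19 ± 0.56 for MDA-MB-231 EV (limma adjusted p = 1) and -1.75 ± 0.56 for MCF-10A EV (limma adjusted p = 0.765). Tbc1d5, a GTPase-activating protein that acts on Rab7 with the retromer, read 6.31, 2.12 and 7.47 TPM in MDA-MB-231 EV livers and 2.19, 1.02 and 1.11 TPM in MCF-10A EV livers, which overlap with a log2 difference of 1.28 ± 0.47. Rab3ip (Rabin8), the exchange factor of Rab8, read 14.3, 12.6 and 21.3 TPM in MDA-MB-231 EV livers and 12.0, 7.42 and 7.24 TPM in MCF-10A EV livers. Those groups did not overlap, at 0.79 ± 0.37 log2 with an adjusted p of 1 by limma. Rabac1 (PRA1), which handles prenylated Rabs at the Golgi, read 86.6, 84.4 and 172 TPM in MDA-MB-231 EV livers and 69.5, 58.5 and 69.8 TPM in MCF-10A EV livers, also without overlap, at 0.71 ± 0.41 log2. The other named genes had differences of 0.59 ± 0.39 for Rabggtb, 0.81 ± 0.47 for Rab3gap1 and -1.20 ± 0.70 for Bicd1 (MDA-MB-231 EV against PBS). Osbpl1a differed by 1.01 ± 0.44 and Vps37b by 0.92 ± 0.45 log2 between MDA-MB-231 EV and MCF-10A EV livers. Between MCF-10A EV and PBS livers, Dennd1a, an exchange factor of Rab35, differed by 1.15 ± 0.53, Sytl5, a Rab27 effector, by -1.23 ± 0.87, and Chm, the Rab escort protein, by -0.35 ± 0.48 log2. None of these passed the threshold.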

How the data were processed

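Liver RNA of 9 samples in 3 groups was sequenced. Per the labels' protocols, 1 µg of total RNA went into each TruSeq library. The deposited values are TPM, and the submitters' processing notes name HISAT2, StringTie and RSEM with build GRCm39, without versions. The depth of each library is unknown, because TPM keeps none. No source used here states the strand setting. The TPM of the MCF-10A EV libraries sum to 934986 to 979351, with every assembled locus at 0, and only Ensembl genes were tested.

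The model was fitted by limma 3.58.1 (R 4.3.3) to log2(TPM + 1). All 9 libraries entered with group means as coefficients, the prior followed the trend with level, and tests were two-sided. A mean of 1 TPM or more was required, which 12860 genes met, and p-values were adjusted over all of them by Benjamini-Hochberg, with a threshold of 0.05. A fold change on this scale understates the change of low genes. The code of the test was checked on simulated data. The share of true changes it would find at the spread of these data is not given here.

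The members and gene lists were chosen with earlier results of these data known. Values per library are given for the 2 highest Rabs of each compartment and for the 4 smallest p in each comparison. Rab27a, Rab27b and the gene with the smallest p of each list of Rab regulators are also named. Further genes were chosen after their values were seen, except those shown for an exon overlap or a miR-9-5p match. Replicate numbers come from the sample titles. Deviations from the group means of same-numbered MDA-MB-231 EV and MCF-10A EV libraries correlated over all genes at 0.336, 0.11 and 0.436, so the fit with the number as a block is given beside that comparison. Alternatives covered the pseudocount, the filter on low values, scaling, weights, the libraries entering the fit, and leaving out each library. Gene positions and 3′ UTRs come from GENCODE M21 and promoters from RefSeq, both on GRCm38, which differs from the build of the authors; genes were joined by identifier or symbol.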

Additional observations from a re-analysis of the deposited data

How the results depend on the processing

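No Rab passed the threshold in any of the 3 comparisons under any alternative run. Counts over all tested genes depended on the setting. For MDA-MB-231 EV against PBS, 0 genes passed under every alternative that kept all libraries, 0 to 24 when 1 library was left out (24 without PBS 1, 5 without MDA-MB-231 EV 3), and 28 with both of these left out, an alternative chosen after seeing the data. For MDA-MB-231 EV livers against MCF-10A EV livers, with 28 genes, 11 passed with no filter on low values, 17 with a mean of at least 5 TPM, 17 with only those groups in the fit, 46 with array weights and 15 with the replicate block. Leaving out 1 library gave 13 to 31, and leaving out MCF-10A EV 1 and MDA-MB-231 EV 1, also chosen after seeing the data, gave 14. For MCF-10A EV against PBS, with 25 genes, 40 passed with a pseudocount of 0.1, 12 with no filter, 66 with only those groups, 548 with array weights, 14 to 59 with 1 library left out, 85 without PBS 1 and MDA-MB-231 EV 3, and 13 without MCF-10A EV 1 and MDA-MB-231 EV 1. With array weights Dennd1a, Tbc1d1 and Chmp4c passed in that comparison (limma adjusted p = 0.0184, 0.0151 and 0.0456). The causes were not tested.

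Same-numbered libraries correlated at -0.284, 0.5 and -0.389 for MDA-MB-231 EV with PBS and at -0.206, -0.09 and -0.158 for MCF-10A EV with PBS, so these share only a number, and not every library correlated best with its own number. There the replicate block gave 0 and 20 genes.

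Rab27a changed direction, without a call, in MDA-MB-231 EV against PBS (-0.2142 to 0.3067 with 1 library left out, the lowest without MDA-MB-231 EV 1, and -0.2142 without MCF-10A EV 1 and MDA-MB-231 EV 1). It did so in MDA-MB-231 EV livers against MCF-10A EV livers with array weights (0.0453). The Rab median ranged over 0.08 to 0.49 for MDA-MB-231 EV against PBS, -0.18 to 0.50 for MDA-MB-231 EV livers against MCF-10A EV livers and -0.07 to 0.44 for MCF-10A EV against PBS. Low Rabs near 1 TPM, such as Rab27a, are limited by the unknown depth.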

Other observations

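Rab7b and Rab38, both too low to be tested, and Rab8b had their highest value in MCF-10A EV 1. This is not particular to them: 17 of the 41 tested Rabs (41.5%) peaked there, Rab8b among them, against 18.6% of all tested genes. The untested Rab19, Rab27b, Rab39, Rab39b and Rab44 peaked there too. Rab7b, a Rab of the route from late endosomes to the Golgi in immune cells, read 0.48, 0.18 and 0.42 TPM in MDA-MB-231 EV livers, 2.38, 0.23 and 0.23 TPM in MCF-10A EV livers and 0.40, 0.34 and 0.59 TPM in PBS livers. Rab38, the melanosome relative of Rab32, read 0.04, 0.22 and 0 TPM in MDA-MB-231 EV livers, 1.75, 0.09 and 0 TPM in MCF-10A EV livers and 0.49, 0.17 and 0.18 TPM in PBS livers. The tested recycling Rab Rab8b read 1.52, 0.64 and 2.90 TPM in MDA-MB-231 EV livers, 6.83, 0.45 and 0.53 TPM in MCF-10A EV livers and 1.77, 1.44 and 0.69 TPM in PBS livers, a fold range of 15.2 over the 9 libraries. These genes were chosen after their values were seen. The same library held 1917 TPM of Kupffer cell markers and 9127 TPM of neutrophil and monocyte markers, whose part in these values was not tested. Among those Kupffer cell markers, Clec4f read only 0.61 TPM there.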
